A study of Gallus gallus with 24 samples.

Results

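The genes of cholesterol and fatty acid synthesis were read out of an RNA sequencing experiment on chicken PBMCs (peripheral blood mononuclear cells) kept as a control or treated with BS, BV or conA. The rule named 34 genes by symbol, and 30 of them were found among the 23910 genes of the count table. All 30 were among the 20266 genes tested, and all 30 also passed edgeR's own filter on low counts. IDI1, TM7SF2, EBP and FADS1 were not analysed here. PBMCs of 6 broiler chickens (Cobb500, aged 4 to 6 weeks) were cultured overnight with penicillin and streptomycin and then for 24 h in medium without these antibiotics. The control received medium alone, BS was a strain of Bacillus subtilis and BV a strain of Bacillus velezensis, both at 3 bacteria per PBMC, and conA (concanavalin A) was added at 10 µg/ml as a mitogenic lectin. Duplicate wells of a chicken were pooled, so that each of the 4 conditions had 6 libraries and each chicken contributed 1 library to each condition. Each library is a mixture of blood cell types, in which fewer cells of a type and less RNA per cell cannot be told apart.

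Animal cells build cholesterol from acetyl-CoA. The mevalonate arm makes isoprenoid units and farnesyl diphosphate, and a second series of enzymes joins these to squalene, closes the ring to lanosterol and trims it to cholesterol. When sterols run low in the endoplasmic reticulum, SCAP escorts the SREBP transcription factors to the Golgi apparatus, where they are cut and released to raise the transcription of these genes. INSIG proteins hold SCAP back when sterols are plentiful. Fatty acid synthesis shares acetyl-CoA as the starting unit and is also under SREBP control. Lymphocytes that enter division are known to need both products for new membranes. These roles are known mainly from mammals.

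Reads counted on genes were between 12170873 and 31242160 per library, with a median of 23952895. Normalized read counts are the counts divided by a size factor for the depth of each library. They compare 1 gene between libraries and say nothing about 1 gene against another, since longer genes collect more reads. The T cell markers CD3E and CD3D were high in every library, with lowest normalized read counts of 17091 and 9243. The summed markers of thrombocytes, the nucleated blood cells that serve as platelets in birds, divided the chickens. In the control, the 7 markers together reached 35784 to 97622 normalized read counts in chickens 1 and 2 and 966 to 4441 in chickens 3 to 6, and none was at 0 in any library.

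In the control, the mevalonate arm was expressed by all 6 of its genes that were found. ACAT2, which joins acetyl-CoA units, had normalized read counts of 200 to 301 (median 251) in the 6 chickens, and HMGCS1, which adds the next unit, had 1364 to 1953 (median 1647). The kinases MVK and PMVK, which phosphorylate mevalonate, had 338 to 560 and 118 to 353. MVD, which turns the product into isopentenyl diphosphate, had 168 to 421, and FDPS, which joins isoprenoid units to farnesyl diphosphate, had 250 to 392. PMVK and MVD were the genes of this arm with the widest spread between birds, the former high in chicken 1 and the latter low in chicken 3.

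The 9 genes found of the arm from squalene to cholesterol were expressed in every control library too. FDFT1, the squalene synthase, had 2890 to 3358 normalized read counts, and SQLE, which oxidizes squalene, had 1494 to 2281. LSS, which closes the sterol ring, had 1077 to 1445. CYP51A1, a cytochrome P450 that removes a methyl group from lanosterol, had 937 to 1488 (median 1286). MSMO1, NSDHL and HSD17B7, which together remove further methyl groups, had 607 to 910, 406 to 655 and 276 to 397. SC5D and DHCR7, which act at the end of the pathway, had 369 to 552 and 246 to 347. FDFT1 was among the steadiest genes of the set, whereas most of the others differed by a larger factor between birds.

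Among the genes that control the pathway, SREBF2, whose product mainly drives cholesterol synthesis, had 8528 to 11223 normalized read counts in the control, and SREBF1, whose product mainly drives fatty acid synthesis, had 832 to 1328. SCAP had 1864 to 2980, INSIG1 had 1350 to 2010 and INSIG2 had 450 to 624. The sterol carrier STARD4 had 1571 to 2464, and NPC1 and NPC2, which export cholesterol from lysosomes, had 811 to 1439 and 679 to 1261. FASN, which assembles palmitate, had 5810 to 6696, and ACACA, which supplies its malonyl-CoA, had 3387 to 4396. The chain-lengthening enzymes ELOVL1, ELOVL5 and ELOVL6 had 1038 to 2661, 2094 to 2995 and 37.8 to 123. Of the desaturases, SCD had 31.9 to 75.1 and FADS2 had 49.3 to 228. SCD had the fewest reads of all members, with 17 in the lowest library, followed by FADS2 with 36 and ELOVL6 with 39, and these were also among the genes with the widest spread.

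The coefficient of variation between the 6 control chickens had a median of 14.6% over the 30 members, beside 20.6% over the 13035 genes whose control mean reached 10 normalized read counts. The members were not matched to these genes in read count, so that the lower median is not read as a trait of the pathway. Among the members the coefficient was lowest for FASN at 5.16% and highest for FADS2 at 48.1%. The highest library exceeded the lowest by less than a factor of 1.5 in 13 members and by less than a factor of 2 in 24. A few members differed between the controls of chickens 1 and 2, those with many thrombocyte reads, and those of chickens 3 to 6. The summed monocyte or macrophage markers divided these controls in the same way (869 to 872 and 110 to 386). So did the summed heterophil markers (333 to 488 and 114 to 309), and which cell type a member follows was not tested. ELOVL1, which makes very long saturated chains, had 1829 and 2661 normalized read counts in the controls of chickens 1 and 2 and 1038 to 1098 in those of chickens 3 to 6, a ratio of means of 2.09. For FADS2, which takes the first step towards long polyunsaturated fatty acids, these ranges were 172 to 228 and 49.3 to 163, a ratio of 1.93. For NPC2 they were 1089 to 1261 and 679 to 791, a ratio of 1.64. ACAT2 was also higher in both of these chickens than in the other 4, and ACACA was lower. In all, 4 of 30 members (13.3%) lay above and 1 (3.33%) below, beside 15.2% and 10.9% of all genes tested, so that these shares were not larger than those of other genes. These chickens were set apart after their marker levels had been seen, and the values are a description without a test.

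**Figure D1:**
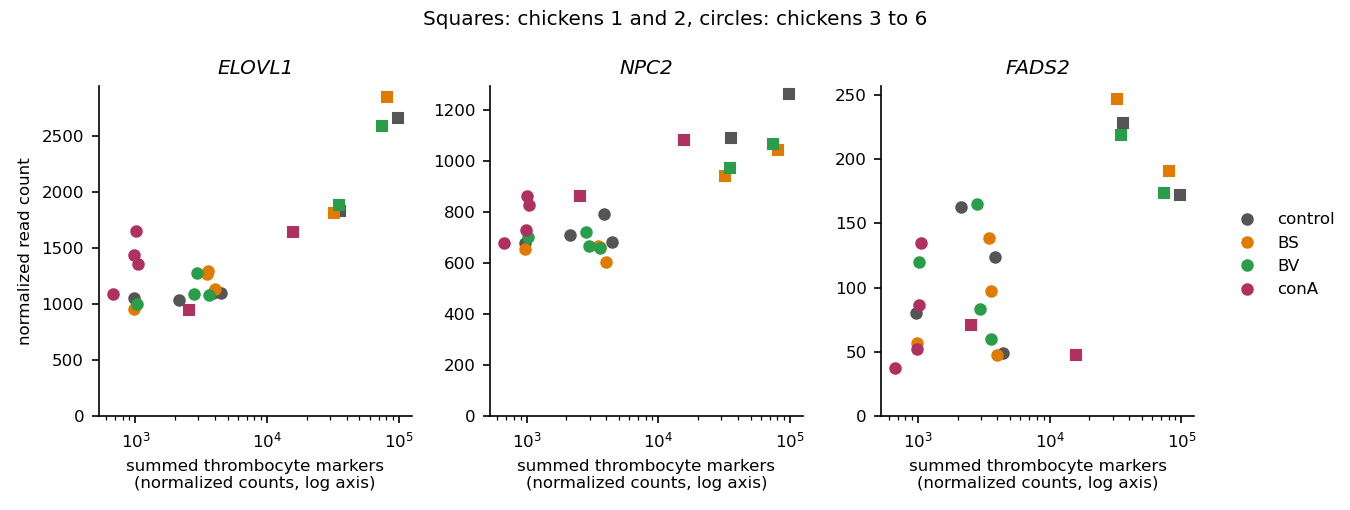
Normalized read counts of ELOVL1, NPC2 and FADS2 (vertical axes, from 0) against the summed normalized read counts of the 7 thrombocyte markers (horizontal axes, logarithmic) in the 24 libraries, with colour for the condition, squares for chickens 1 and 2 and circles for chickens 3 to 6. In control, BS and BV the squares lie at marker sums of at least 32247 and above the circles in each panel, whereas the conA squares lie at 2528 and 15763.

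**Figure D2:**
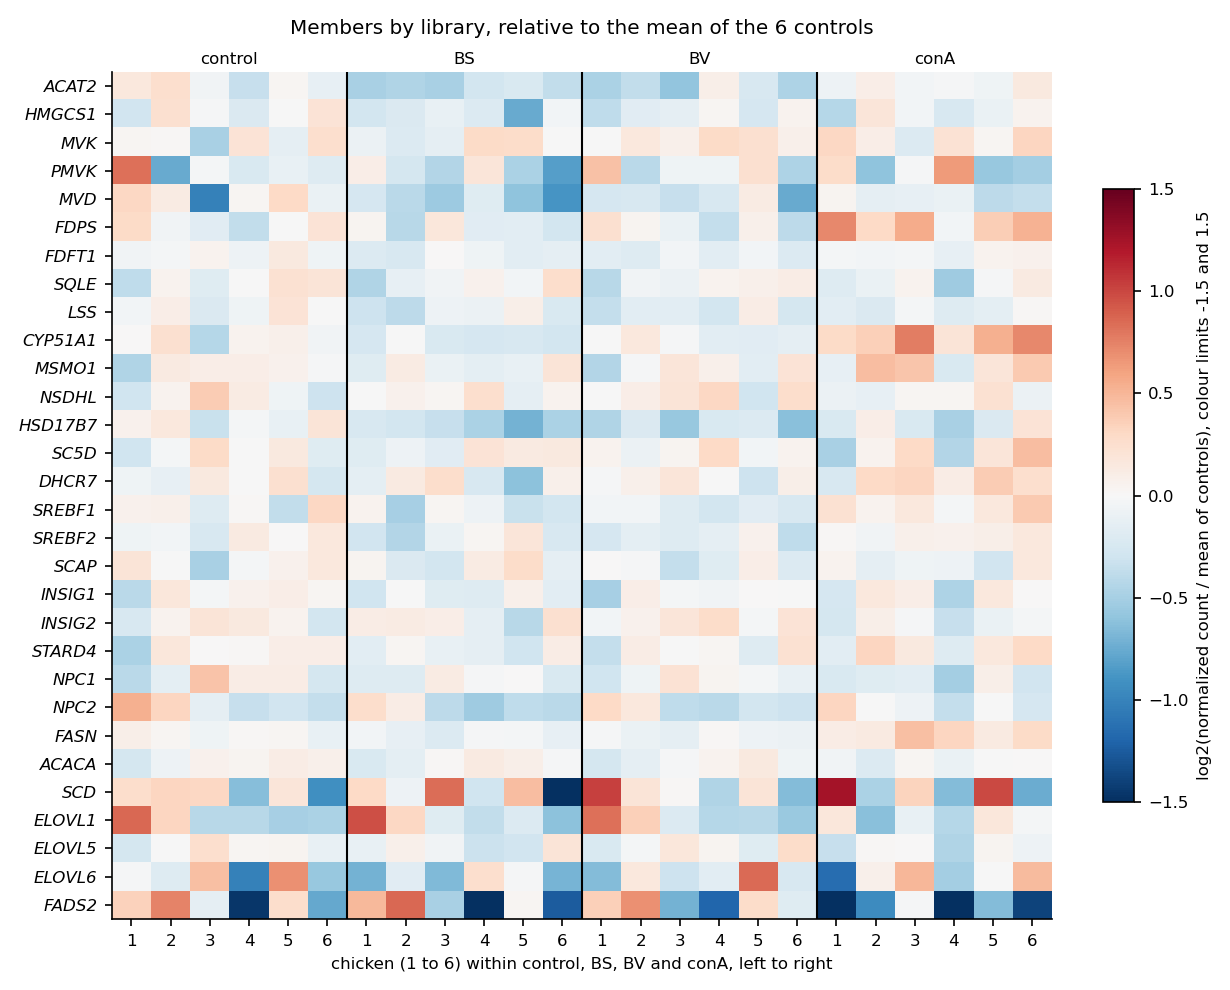
Each of the 30 members (rows, ordered by role) in each of the 24 libraries (columns, chickens 1 to 6 within control, BS, BV and conA), coloured by the log2 ratio of the normalized read count to the mean of the 6 controls, with colour limits at -1.5 and 1.5. CYP51A1 and FDPS are redder under conA, and most other rows stay pale in every condition. SCD, ELOVL6 and FADS2, which have few reads, and ELOVL1 and PMVK are among the rows that vary most between birds.

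conA was used in the study as a positive control for proliferation, and its 6 libraries were fitted together with the 6 control libraries. CYP51A1 was the only member that changed at an adjusted p under 0.05 in edgeR's quasi-likelihood test without a term for the chicken, and it rose. Thus 1 of 30 members (3.33%) was higher and 0 were lower, while 2.20% of all genes tested were higher and 0.138% were lower, and the share of members called was near that of all genes. At an unadjusted p under 0.05, 3 members were higher and 1 was lower, beside 6.98% and 5.81% of all genes. The log2 FC had a median of -0.02 over the members and -0.03 over all genes, and it was below 0 in 16 of the 30. None passed both of the study's thresholds, an adjusted p under 0.05 and a log2 FC beyond 1.5 in either direction, which 0.873% of all genes did. With the chicken as a block, 2 members were higher (CYP51A1 and FDPS) and 1 was lower (FADS2), beside 3.52% and 2.60% of all genes.

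CYP51A1 had normalized read counts of 937, 1286 and 1488 (lowest, median and highest) in the control and 1437, 1720 and 2139 after conA. It was higher after conA in 6 of 6 chickens, as were 5.75% of all genes, although the lowest conA library, that of chicken 4, lay below the highest control library, that of chicken 2. Its log2 FC was 0.50 with an SE of 0.12 and a 95% interval of 0.23 to 0.76 (edgeR, adjusted p = 0.0430). Within chickens the log2 ratio was 1.19 in chicken 3 and 0.77 in chicken 6, but only 0.12 in chicken 2 and 0.14 in chicken 4. The call was therefore close to its threshold. The adjusted p was 0.0662 without chicken 2, 0.188 without chicken 3, 0.143 without chicken 5 and 0.205 without chicken 6, and over all 22 alternatives it ran from 5.7e-04 to 0.808. In the labels the conA libraries of chickens 3 to 6 are numbered apart from their controls. The log2 FC of CYP51A1 was 0.22 in chickens 1 and 2 alone (adjusted p = 0.808) and 0.64 in chickens 3 to 6 alone (adjusted p = 0.0315, or adjusted p = 0.0562 with the chicken as a block), and in chickens 3 to 6 the treatment and this numbering cannot be told apart.

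FDPS, whose product stands where sterols and other isoprenoids branch, had 250, 316 and 392 normalized read counts in the control and 313, 439 and 529 after conA. The groups overlapped, but all 6 chickens had more FDPS reads after conA than in their own control, beside 5.75% of all genes. Its log2 FC was 0.43 with an SE of 0.15, which did not pass the test without the block (edgeR, adjusted p = 0.201) and did so with it (log2 FC 0.42, adjusted p = 0.0364). The blocked call was lost without any 1 of the chickens, with adjusted p values of 0.0515 to 0.109.

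FASN was the only member whose control and conA groups did not overlap, with 5810, 6380 and 6696 normalized read counts in the control and 6778, 7273 and 8604 after conA, beside 1.89% of all genes that were higher without overlap. It was higher in 6 of 6 chickens, as were 5.75% of all genes, yet in chicken 1 by a log2 ratio of only 0.02. The log2 FC of 0.25 with an SE of 0.09 did not pass the test in the fit of 12 libraries (edgeR, adjusted p = 0.194, or adjusted p = 0.130 with the chicken as a block). FASN was called when all 24 libraries entered 1 fit.

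FADS2 had 49.3, 143 and 228 normalized read counts in the control and 37.3, 61.4 and 135 after conA, and it was lower after conA in 5 of 6 chickens with much overlap. The log2 FC was -0.92 with an SE of 0.36 and a 95% interval of -1.69 to -0.15 (edgeR, adjusted p = 0.286). With the chicken as a block it was -0.94 and passed the test (adjusted p = 0.0415). Chickens 1 and 2, those with many thrombocyte reads, carried most of this difference. FADS2 had a log2 FC of -1.74 in these alone (adjusted p = 0.143) and of -0.38 in chickens 3 to 6 alone (adjusted p = 0.842). The difference between these sets of chickens was not tested. Chickens 3 to 6 are also those whose conA libraries are numbered apart, so that thrombocyte reads and numbering cannot be told apart here. Leaving out a chicken from the blocked fit ended the FADS2 call in 5 of the 6 cases, the exception being chicken 3, with adjusted p values of 0.00969 to 0.229.

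The thrombocyte markers were also lower after conA in most chickens. Their sum ran from 674 to 15763 normalized read counts after conA against 966 to 97622 in the control, and it was lower in 5 of 6 chickens with a median log2 ratio of -2.26. Of the 7 markers, 1 (F13A1) was lower in the fit without the block and 5 were with it, beside 0.138% and 2.60% of all genes. The part of this shift in the results for FADS2, ELOVL1 and NPC2 was not tested, and the library numbering divides the chickens in the same way. ELOVL1 had log2 ratios of conA to control of -0.69 and -0.95 in chickens 1 and 2 and of -0.02 to 0.67 in the other 4, which left a log2 FC of -0.11 over all 6 chickens (95% interval -0.65 to 0.44, edgeR adjusted p = 0.913). The T cell markers summed to 50524 to 65515 in the control and 57672 to 64597 after conA.

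No other member of either sterol arm was called after conA in the fit of these 12 libraries. HMGCS1 was lower in 6 of 6 chickens, as were 4.93% of all genes, but by a log2 FC of only -0.08 (SE 0.12, edgeR adjusted p = 0.821). MVK was higher in 6 of 6 chickens, as were 5.75% of all genes, with a log2 FC of 0.14 (SE 0.14, adjusted p = 0.749). ACAT2 (0.02), PMVK (-0.05), MVD (-0.17), FDFT1 (-0.01), SQLE (-0.09), LSS (-0.11), NSDHL (0.01), HSD17B7 (-0.12) and SC5D (0.06) had log2 FC values close to 0, and those of MSMO1 and DHCR7 were 0.21 each with adjusted p values of 0.574 and 0.586. None of these passed the test, which does not show that they were unchanged, and whether any of them differed from CYP51A1 was not tested. Among the regulators, the log2 FC was 0.17 for SREBF1, 0.06 for SREBF2, -0.05 for SCAP, -0.03 for INSIG1 and -0.10 for INSIG2. STARD4 (0.11), NPC1 (-0.20), NPC2 (-0.04), ACACA (-0.05), ELOVL5 (-0.12), ELOVL6 (0.02) and SCD (0.37) were not called either. The 95% intervals of 28 of the 30 members lay within a log2 FC of 1 in either direction, and those of 21 within 0.5, the exceptions to the wider bound being FADS2 and SCD.

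**Figure D3:**
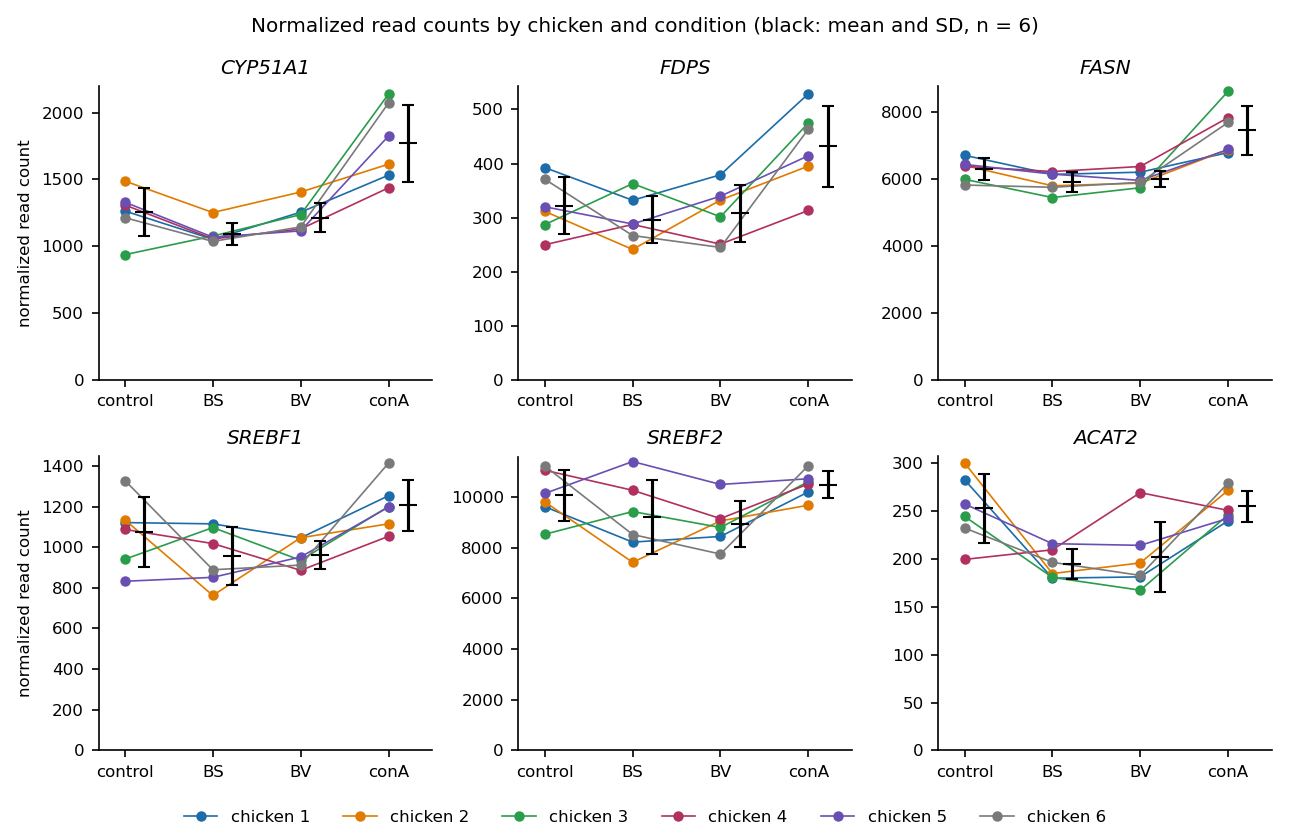
Normalized read counts (vertical axes, from 0) of CYP51A1, FDPS, FASN, SREBF1, SREBF2 and ACAT2 in control, BS, BV and conA, with 1 coloured line per chicken and the mean and SD of the 6 chickens in black. Every conA library of CYP51A1 and FASN lies above every BS and every BV library, and for FDPS each chicken's line is higher at conA than at its own control, BS and BV.

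Genes around the pathway were read out by lists. Of 11 genes found for sterol efflux, esterification and oxysterols, 1 rose after conA, and their median log2 FC was -0.02. This was SOAT1, whose enzyme esterifies cholesterol for storage, with 79.9, 140 and 175 normalized read counts in the control and 477, 532 and 745 after conA. All conA libraries lay far above all control libraries. SOAT1 had a log2 FC of 2.10 with an SE of 0.19 (edgeR, adjusted p = 2.6e-06), which exceeded that of every member. CH25H, which makes an oxysterol, had 4.03 to 24.2 normalized read counts in the control and 18.7 to 45.3 after conA and was called with the chicken as a block (adjusted p = 0.0443) but not without it (adjusted p = 0.0824).

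Of 16 other genes of fatty acid elongation and activation, 1 rose after conA, HSD17B12, which reduces the ketone intermediate of chain elongation. It had 506 to 657 normalized read counts in the control and 724 to 1204 after conA, without overlap, and a log2 FC of 0.73 with an SE of 0.13 (edgeR, adjusted p = 0.00396). Of 13 genes of fatty acid oxidation, 1 rose, DECR1, a reductase needed to oxidize unsaturated fatty acids, with a log2 FC of 0.60 and an SE of 0.14 (adjusted p = 0.0226). Of 15 proliferation genes 1 rose, MCM2, part of the replicative helicase, with a log2 FC of 0.49 (adjusted p = 0.0330), and the median of that list was 0.34. Of 10 genes that use isoprenoids and 15 further SREBP target and sterol genes, 0 were called in either fit, with median log2 FC values of -0.07 and -0.02. Beside these counts, 2.20% of all genes tested were higher after conA without the block. None of these lists had a gene called after BS or BV in either fit.

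BS and BV shared 1 fit with the control, of 18 libraries. With BS, 0 of 30 members passed an adjusted p under 0.05 in edgeR, as did 0% of all genes tested, and with the chicken as a block 0 of 30 did, beside 0.641% of all genes that were higher and 0.395% that were lower. At an unadjusted p under 0.05, 4 members were lower and 0 were higher, while 1.60% of all genes were lower and 1.54% were higher. These 4 were HSD17B7, ACAT2, MVD and CYP51A1. With the block this count was 10 lower and 0 higher, beside 5.20% and 5.63% of all genes. The log2 FC was below 0 in 24 of the 30 members, with a median of -0.09 over the members and 0 over all genes. DESeq2 and the other planned settings without a block also called 0 members. DESeq2 called 13 of the 20266 genes tested as higher and 2 as lower after BS, where edgeR without the block called 0.

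HSD17B7, the reductase among the demethylating enzymes, had 276, 353 and 397 normalized read counts (lowest, median and highest) in the control and 212, 262 and 296 after BS. The groups overlapped at their edges, and 6 of 6 chickens had fewer HSD17B7 reads after BS than in their control, a pattern that 2.27% of all genes shared. HSD17B7 had a log2 FC of -0.41 with an SE of 0.12 and a 95% interval of -0.67 to -0.15 (edgeR, adjusted p = 1 without and adjusted p = 0.0598 with the chicken as a block). After BV the 3 values of HSD17B7 were 225, 275 and 303, again lower than the control in 6 of 6 chickens, beside 2.62% of all genes. The log2 FC against the control was -0.37 with an SE of 0.12 (edgeR, adjusted p = 1 without and adjusted p = 0.0927 with the block). Both comparisons use the same 6 control libraries, so that these values are not independent of each other.

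ACAT2 had 200, 251 and 301 normalized read counts in the control, 180, 191 and 216 after BS and 168, 189 and 269.5 after BV. Chicken 4 was the exception, since the other 5 were below their own control with either strain. Its log2 FC was -0.38 after BS (SE 0.14, 95% interval -0.66 to -0.10) and -0.32 after BV (SE 0.13, 95% interval -0.60 to -0.04), both with an adjusted p of 1 in edgeR. With the chicken as a block the adjusted p was 0.168 after BS and 0.280 after BV. Without chicken 4, the blocked fit gave ACAT2 after BV an adjusted p of 0.0491, the only member called after BV in any setting.

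MVD had 168, 358 and 421 normalized read counts in the control and 185, 245 and 298 after BS. Chicken 3 ran against the others, since its control was the lowest and its BS library was higher. For MVD the log2 FC was -0.46 with an SE of 0.19 after BS and -0.26 with an SE of 0.18 after BV, both with an adjusted p of 1 in edgeR. Without chicken 3, the blocked fit called 3 members as lower after BS, beside 96 of the 20266 genes tested. The 3 members were MVD (adjusted p = 0.0113), CYP51A1 (adjusted p = 0.0313) and HSD17B7 (adjusted p = 0.0352).

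CYP51A1 had 1036, 1061 and 1252 normalized read counts after BS, against 937, 1286 and 1488 in the control, with a log2 FC of -0.21 (SE 0.10, 95% interval -0.41 to -0.00411). The highest of the BS libraries was that of chicken 2, and the other 5 lay between 1036 and 1076. HMGCS1 had 1364, 1647 and 1953 in the control and 979, 1435 and 1616 after BS, a log2 FC of -0.25 (SE 0.12, 95% interval -0.50 to 0.00225), with the lowest BS library in chicken 5. FDFT1 had 2890, 2967 and 3358 in the control, 2578, 2751 and 3043 after BS and 2651, 2725 and 2961 after BV. These groups overlapped. FDFT1 was lower after BV in 6 of 6 chickens, beside 2.62% of all genes. Its log2 FC was -0.13 (SE 0.07, 95% interval -0.27 to 0.01), with the same rounded values after BS.

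With BV, 0 of 30 members passed an adjusted p under 0.05 in edgeR, where 0.00493% of all genes were lower and 0% were higher, and 0 of 30 did with the chicken as a block, beside 0.602% of all genes that were higher and 0.311% that were lower. At an unadjusted p under 0.05, 2 members were lower, HSD17B7 and ACAT2, and 0 were higher, beside 1.41% and 1.53% of all genes. With the block this count was 5 lower and 0 higher, beside 5.14% and 5.73% of all genes. DESeq2 also called 0 members after BV, beside 9 of the 20266 genes tested that were higher and 1 that was lower. The log2 FC was below 0 in 20 of the 30, with a median of -0.04 over the members. LSS had 1077, 1232 and 1445 normalized read counts in the control and 982, 1084 and 1352 after BV, a log2 FC of -0.17 (SE 0.10, 95% interval -0.38 to 0.04). SREBF2 had 8528, 9972 and 11223 in the control and 7746, 8925 and 10493 after BV, also a log2 FC of -0.17 (SE 0.10, 95% interval -0.38 to 0.04).

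**Figure D4:**
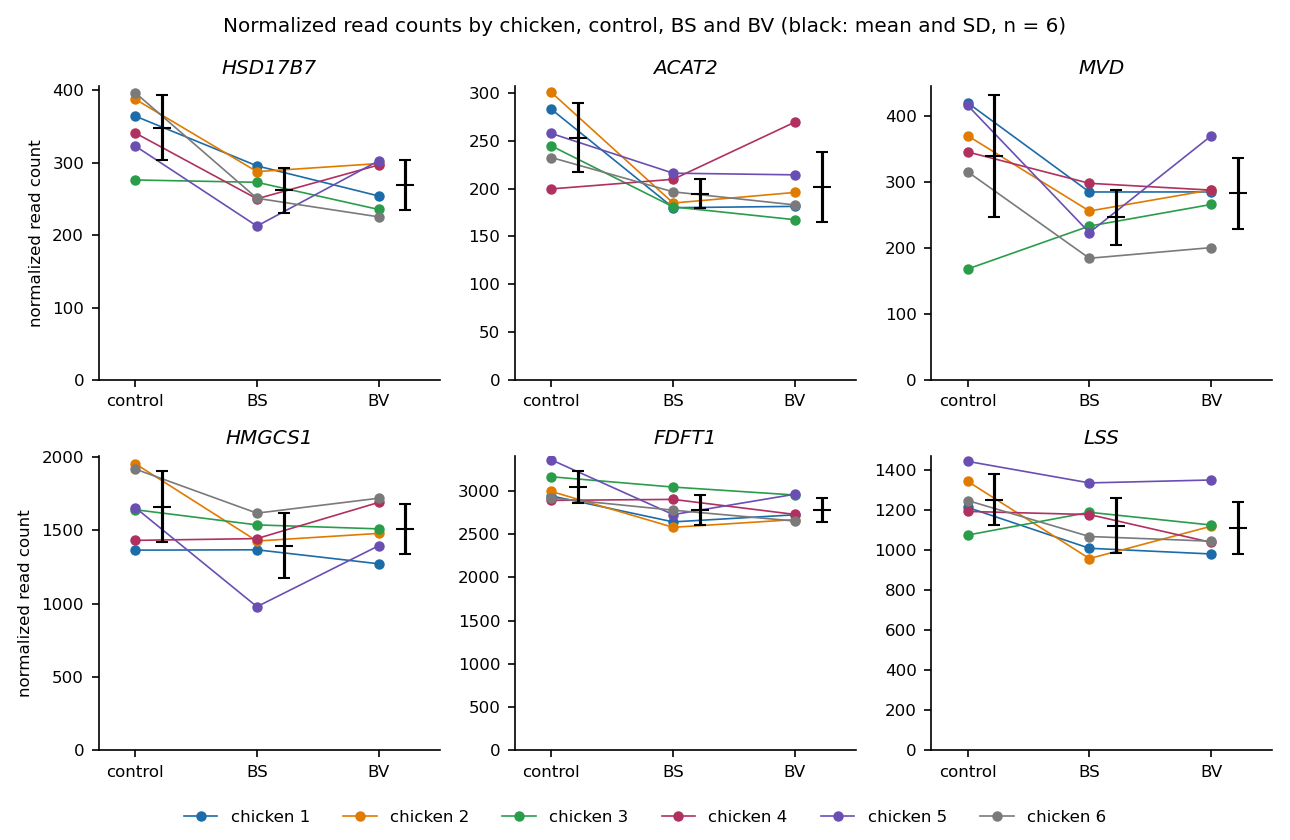
Normalized read counts (vertical axes, from 0) of HSD17B7, ACAT2, MVD, HMGCS1, FDFT1 and LSS in control, BS and BV, with 1 coloured line per chicken and the mean and SD of the 6 chickens in black. HSD17B7 is lower than the control in all 6 chickens after BS and after BV, while the ACAT2 line of chicken 4 and the MVD line of chicken 3 run upwards.

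By role, the 6 genes of the mevalonate arm had a median log2 FC of -0.24 after BS and -0.10 after BV, those from squalene to cholesterol -0.05 and -0.04, the regulators -0.13 and -0.10, the sterol transporters -0.09 and -0.03, and the fatty acid genes -0.07 and 0.02. FASN was lower after BS in 6 of 6 chickens, by a log2 FC of -0.09 (SE 0.06), and NPC2 was too, by -0.19 (SE 0.18), beside 2.27% of all genes. A log2 FC beyond 1 in either direction lay outside the 95% interval of all 30 members after BS and after BV. A log2 FC beyond 0.5 lay outside the interval of 20 members after BS and 23 after BV. Markers of other cells differed in the same libraries. The summed erythroid markers were higher in 6 of 6 chickens after BS (256 to 2920 in the control, 280 to 7656 after BS) and in 6 of 6 after BV (261 to 8357), and so were the B cell markers (1093 to 1821, 1221 to 2150 and 1268 to 2019). Of 6 erythroid markers found, 3 were called as higher after BS and 2 after BV with the block, beside 0.641% and 0.602% of all genes. Without the block 0 were called. There the log2 FC of single erythroid markers ran from -2.64 to 1.10 after BS and from -1.44 to 1.01 after BV. Their part in the members' values was not tested.

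**Figure D5:**
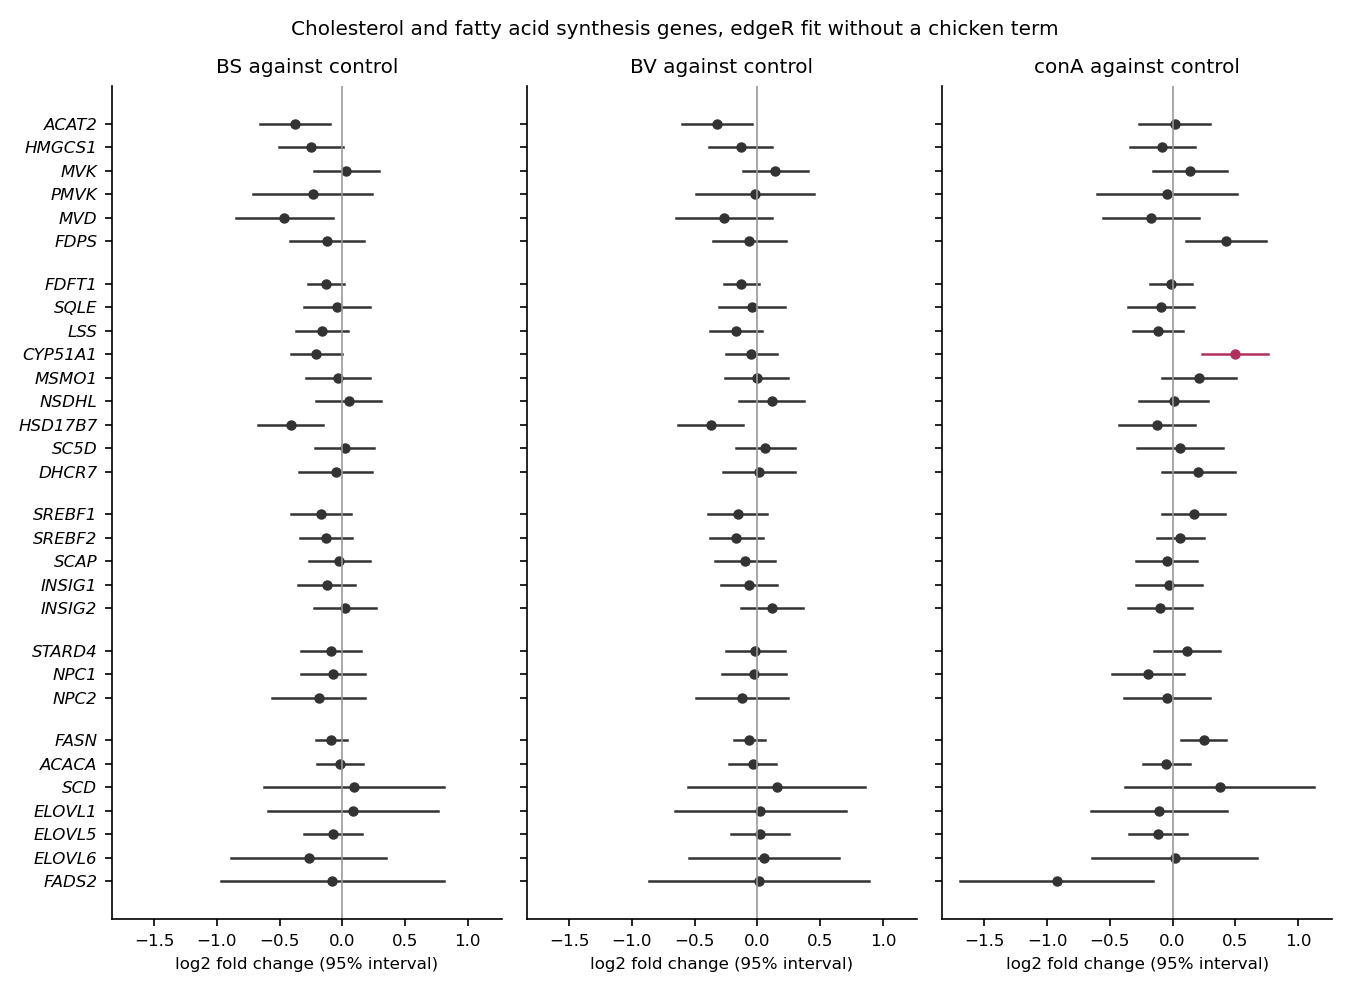
The log2 FC of each of the 30 members (rows, ordered by role) with its 95% interval from edgeR's fit without a term for the chicken, for BS, BV and conA against the control, where red marks an adjusted p under 0.05. CYP51A1 after conA is the only red point, HSD17B7 and ACAT2 lie to the left of 0 after both strains, and FADS2, ELOVL1, SCD and ELOVL6 have the widest intervals.

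Between BS and BV no member was called, which does not show that the members were equal. In edgeR, 0 of 30 passed an adjusted p under 0.05 with or without the chicken as a block, as did 0% of all genes, and 0 members had an unadjusted p under 0.05 without the block, beside 0.607% of all genes that were lower and 0.513% that were higher. With the block 1 member did and was lower, beside 1.39% of all genes. This was CYP51A1, which was lower with BS than with BV in 6 of 6 chickens with a log2 FC of -0.16 (SE 0.10 without the block). Lower in 6 of 6 chickens were 1.16% of all genes, and NPC2 was the other member with this pattern, at a log2 FC of -0.07. The log2 FC was below 0 in 25 members, among them all 6 genes of the mevalonate arm, and its 95% interval lay within 1 in either direction for all 30.

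Whether conA differed from the strains was tested directly, in 1 fit of all 24 libraries. The conA libraries of chickens 3 to 6 are numbered apart from their BS and BV libraries too. In these chickens the treatment and this numbering cannot be told apart. The pairing of conA with BS and BV was not borne out in every chicken, as given below with the processing. This limits the counts over chickens and the blocked calls. Against BS, 3 of 30 members were higher with conA, CYP51A1, FASN and FDPS, and 0 were lower, beside 3.60% and 0.567% of all genes. Against BV the same 3 were higher and 0 were lower, beside 3.23% and 0.405% of all genes. The median log2 FC of the members was 0.17 against BS and 0.06 against BV, where that of all genes was -0.03 and -0.02. With the chicken as a block, 5 members were higher and 1 was lower against BS, beside 6.95% and 6.18% of all genes, and also against BV, beside 6.28% and 5.47%.

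CYP51A1 was higher with conA than with BS by a log2 FC of 0.71 (SE 0.11, edgeR adjusted p = 5.6e-05) and than with BV by 0.55 (SE 0.11, adjusted p = 0.00143). Its BS libraries ran from 1036 to 1252, its BV libraries from 1115 to 1406 and its conA libraries from 1437 to 2139 normalized read counts. The conA group overlapped with neither, beside 2.22% and 2.09% of all genes that were higher without overlap. As many as 6.08% and 5.30% of all genes were higher in 6 of 6 chickens. CYP51A1 was called in all 19 alternatives of both comparisons, including those without any 1 chicken. None of these alternatives used chickens 1 and 2 alone, whose conA libraries are not numbered apart.

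FASN was higher with conA than with BS by a log2 FC of 0.34 (SE 0.07, edgeR adjusted p = 0.00151) and than with BV by 0.32 (SE 0.07, adjusted p = 0.00375). FASN had 5437, 5957 and 6212 normalized read counts after BS, 5728, 5918 and 6362 after BV and 6778 or more after conA, again without overlap. It was called in all 19 alternatives against BS and in 18 of 19 against BV, where the adjusted p was 0.0545 without chicken 3. FDPS had 241, 288 and 363 after BS, 245, 317 and 379 after BV and 313, 439 and 529 after conA. Its log2 FC was 0.55 against BS (SE 0.14, adjusted p = 0.0212) and 0.50 against BV (SE 0.14, adjusted p = 0.0462). Without the block this call depended on single birds. Against BS the adjusted p of FDPS was 0.114, 0.0791 and 0.0989 without chickens 2, 5 and 6, and against BV it was 0.0574, 0.0981, 0.173, 0.0859 and 0.244 without chickens 1, 2, 3, 5 and 6. With the chicken as a block, FDPS was called without each chicken in turn, with adjusted p values of 0.00120 to 0.0121 against BS and 0.00381 to 0.0269 against BV.

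Further members were called between conA and the strains with the chicken as a block. Of these, ACAT2 and SREBF1 also passed against BS without the block in DESeq2 (adjusted p = 0.0272 and adjusted p = 0.0486), and ACAT2 did with edgeR's own filter on low counts (adjusted p = 0.0378). ACAT2 was higher with conA than with BS in 6 of 6 chickens, beside 6.08% of all genes. It had 180 to 216 after BS and 240 to 280 after conA without overlap, beside 2.22% of all genes. Its log2 FC was 0.40 (edgeR, adjusted p = 0.0719, or adjusted p = 0.0281 with the block). After conA this gene was thus near its control level of 200 to 301. SREBF1 was higher with conA than with BS (log2 FC 0.35, adjusted p = 0.0777, or adjusted p = 0.0177 with the block) and than with BV (log2 FC 0.33, adjusted p = 0.104, or adjusted p = 0.0252 with the block). Its BV group of 886 to 1047 did not overlap with its conA group of 1054 to 1414, beside 2.09% of all genes. SREBF2 was higher with conA than with BV (log2 FC 0.24, adjusted p = 0.222, or adjusted p = 0.0416 with the block), in 6 of 6 chickens, beside 5.30% of all genes. Each of these calls in the blocked fit was lost without some of the chickens. ACAT2 against BS had an adjusted p of 0.0719, 0.125, 0.0688 and 0.0934 without chickens 1, 2, 3 and 6. SREBF1 had 0.0800, 0.0541 and 0.0878 against BS without chickens 2, 5 and 6, and 0.0545, 0.0518 and 0.121 against BV without chickens 1, 3 and 6. For SREBF2 the blocked call was kept only without chicken 5, with adjusted p values of 0.0219 to 0.207. FADS2 was lower with conA than with BS (log2 FC -0.83, adjusted p = 0.382, or adjusted p = 0.0332 with the block) and than with BV (log2 FC -0.93, adjusted p = 0.335, or adjusted p = 0.0122 with the block), but in chickens 3 to 6 alone these values were -0.01 (adjusted p = 1) and -0.45 (adjusted p = 0.760).

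SOAT1 separated conA from the strains as well, with 88.7 to 201 normalized read counts after BS, 113 to 229 after BV and 477 to 745 after conA. The log2 FC was 2.04 against BS (SE 0.21, edgeR adjusted p = 1.5e-07) and 1.88 against BV (SE 0.21, adjusted p = 4.8e-07), and none of its BS and BV values passed the test against the control, with log2 FC values of 0.07 and 0.23. HSD17B12 was higher with conA than with BS by 0.73 (adjusted p = 1.8e-04) and than with BV by 0.68 (adjusted p = 5.1e-04), and DECR1 by 0.69 (adjusted p = 0.00191) and 0.58 (adjusted p = 0.0115). Of 15 proliferation genes, 4 were higher with conA than with BS and 3 than with BV, beside 3.60% and 3.23% of all genes. With the chicken as a block 8 and 7 were, beside 6.95% and 6.28% of all genes.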

How the data were processed

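Total RNA of PBMCs from 6 chickens was sequenced by the authors from both ends at 100 bases with a stranded kit, trimmed, and aligned to GRCg6a with STAR 2.7.3. Which tool counted the reads, and on which annotation release, is not given in the sources used here. For every library the authors deposited raw read counts for each gene and a normalized signal, which was checked to be the raw count over a DESeq2 size factor to within 4.89e-09. Their columns of samples were all used. Depth was 12170873 to 31242160 counted reads per library, and members with few reads (SCD, FADS2, ELOVL6) are among the least precise.

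Members were matched by gene symbol, which cannot tell reads shared with a near-identical copy apart. Every gene with at least 2 reads in all was tested by quasi-likelihood in edgeR 4.0.16 under R 4.3.3 (robust glmQLFit with legacy set to FALSE, glmQLFTest, TMM, Benjamini-Hochberg adjustment over all genes tested). No chicken term was used, because the study's methods name none for the test across all genes, although they pair by chicken for single genes. Control, BS and BV entered 1 fit, control and conA another, and conA was compared with the strains in a fit of all libraries. Standard errors were taken as the absolute log2 FC over the root of its F value. All p-values are two-sided. The fit of control and conA and that of control, BS and BV were run on simulated counts, with and without the block. The fit of all libraries was not.

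A replicate number marks a chicken, by the study's description. Over 13024 genes whose mean reached 10 normalized read counts, libraries of 1 chicken were compared by their deviations from the group means. The correlations were 0.386 or more (median 0.652) between control and BS, and 0.506 or more (median 0.683) between control and BV. Between control and conA they were -0.03 to 0.77 (median 0.451), and 4 chickens exceeded 0.1. Libraries of different chickens had medians of -0.198, -0.267 and -0.091 in these comparisons and reached 0.567, 0.565 and 0.504. Between BS and conA, libraries of 1 chicken had correlations of -0.08 to 0.74 (median 0.478). Between BV and conA these were -0.03 to 0.76 (median 0.445), and in both comparisons 4 chickens exceeded 0.1. These values do not bear out the pairing of conA with the control, BS or BV in every chicken. The fit with the chicken as a replicate block was read beside the main one.

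Alternatives were DESeq2 1.42.0, RLE scaling, edgeR's filterByExpr, a filter at 1 read, all libraries in 1 fit, each chicken left out, chickens 1 and 2 alone, chickens 3 to 6 alone and the study's thresholds. Chickens 3 to 6 alone for comparisons other than conA with the control or with the block, and all libraries in 1 fit with the block, were added after seeing the data. The members and all lists (other SREBP target and sterol genes, sterol efflux, esterification and oxysterol genes, isoprenoid use, other fatty acid elongation and activation genes, fatty acid oxidation, proliferation, and markers of T cells, B cells, monocytes or macrophages, heterophils, thrombocytes and erythroid cells) were chosen with earlier results of these data known. By rule, all members found were accounted for, those called after conA, and for each strain those called or else the 6 with the smallest p, were given in full, and list genes were named where called. Members shown beyond this rule were chosen after their values were seen. Figures were drawn with Python 3.11.15 and matplotlib 3.10.9, with numpy 2.4.6 and pandas 2.3.3.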

Additional observations from a re-analysis of the deposited data

Results flagged for a closer look

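Dixon's test for a single library far from the other 5 was applied to the 120 groups formed by 30 members and 4 conditions, of which 8 exceeded the critical value of 0.625, where chance gives about 1 in 20. Chicken 1 supplied most of them. In the control it was lowest for MSMO1 (607 normalized read counts) and STARD4 (1571) and highest for PMVK (353), and after BV it was lowest for INSIG1 (1259) and highest for SCD (123). The other 3 were CYP51A1 after BS, highest in chicken 2 (1252), SC5D after BV, highest in chicken 4 (557), and SCAP in the control, lowest in chicken 3 (1864).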

How the results depend on the processing

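For conA against the control, where 1 member was called, 3 were called with the chicken as a replicate block, 2 with all 24 libraries in 1 fit and 4 with both together. In chickens 1 and 2 alone 0 were called, in chickens 3 to 6 with the block 0, and by the study's thresholds 0. Without a single chicken the count was 0 to 1, also with the block. For BS and for BV against the control, where 0 were called, leaving out a chicken from the blocked fit gave 0 to 3 and 0 to 1. The 3 after BS were called as lower without chicken 3, beside 96 of the 20266 genes tested. The 1 after BV was called as lower without chicken 4, beside 28 genes. For conA against BS, where 3 members were called, DESeq2 called 5, beside 862 of all genes that were higher and 281 that were lower. The replicate block called 6 members and the study's thresholds 0. Leaving out a chicken gave 2 to 3, or 3 to 6 with the block. The 6 were called as higher without chicken 4, beside 1112 of the 20266 genes tested. For conA against BV, where 3 were called, the replicate block gave 6, the study's thresholds 0, and leaving out a chicken 1 to 3, or 3 to 7 with the block. The 7 were called without chicken 4, where 6 were higher and 1 was lower, beside 1050 and 877 genes. The other alternatives left the counts of called members within a factor of 1.5, and 0 members were called between BS and BV in each of them. The 27 results for the members given in full or called in a comparison kept their direction in each alternative, with 490 values on the same side of the threshold, 32 that passed it newly and 24 that no longer did. Some of the other members changed sign, since the number with a log2 FC below 0 after conA, 16 as reported, ran from 12 to 20 over the alternatives. With all 6 chickens, the pairing changed the calls of FDPS, FADS2, SREBF1, SREBF2 and ACAT2, as given above, and no other call of a member in the fits of each comparison's own libraries. Control values of FADS2 differed between birds by a factor of up to 4.63, and the intervals of FADS2 and SCD after conA reached past a log2 FC of 1 in size, so that changes of that size are not excluded by these data.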

Other observations

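Of 7 monocyte or macrophage markers, 0 were called against the control with or without the chicken as a block, and of 3 heterophil markers 0 were, except for 1 that was higher after BV with the block. Their sums were 110 to 872 and 114 to 488 normalized read counts in the control, 89.3 to 550 and 96.3 to 528 after BS, 163 to 634 and 123 to 583 after BV, and 137 to 788 and 82.9 to 382 after conA. Of 7 T cell markers found, 1 was called after conA. This was ZAP70, a kinase of the T cell receptor pathway, which rose by a log2 FC of 0.56 (SE 0.11, edgeR adjusted p = 0.00869). The log2 FC of the 7 markers had a median of 0.11 and was lowest at -0.30. The B cell transcription factors EBF1 and PAX5 were higher after BS (log2 FC 1.27 and 0.79) and BV (1.31 and 0.86) in the fit with the chicken as a block (adjusted p = 0.0087 or less in the 4 tests) and had an adjusted p of 1 without it.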
